A study of Mus musculus with 6 samples.

Results

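The pyruvate dehydrogenase (PDH) complex, its kinases and its phosphatases were followed in mouse aortic smooth muscle cells (MASMCs) with and without smooth muscle deletion of Pdk4. The 10 genes were taken by name from the 41721 genes of the count table: the kinases Pdk1, Pdk2, Pdk3 and Pdk4, the phosphatase subunits Pdp1 and Pdpr, and the complex subunits Pdha1, Pdhb, Dlat and Pdhx. All 10 were found and all 10 passed the filter on low counts. Pdp2, Dld and Pdha2, which belong to the same system but were not among the 10, were read beside them.

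The cells came from the abdominal aorta of 10-week-old Pdk4fl/fl mice, in which loxP sites flank exons 4, 5 and 6 of Pdk4 (3 libraries), and of Pdk4SMKO mice, which carry the same floxed alleles and a tamoxifen-inducible Cre under the Myh11 promoter (3 libraries). Both genotypes were on a C57BL/6J background, received tamoxifen for 5 days, and were grown as cultures between passages 4 and 8. Every culture was serum-starved for 48 h and exposed to Ang II (1 μM for 48 h by the methods, the labels naming the agent alone), so no library shows the genes without Ang II. The libraries of a genotype are described as biological replicates, without saying whether each came from a mouse of its own, and p-values measure the spread between these libraries.

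The PDH complex sits in the mitochondrial matrix and converts pyruvate to acetyl-CoA, which joins glycolysis to the tricarboxylic acid cycle. Its first component, E1, is built of α (Pdha1) and β (Pdhb) subunits, its core, E2, of Dlat, and its E3 component (Dld) is held to the core by the binding protein Pdhx. The 4 kinases inactivate E1 by phosphorylating serines of the α subunit, and the phosphatases PDP1 and PDP2 remove the phosphates, PDP1 being paired with the regulatory subunit Pdpr. Pdk4 is the isoform best known for its rise in starvation and in fat-burning tissues, and Pdk1 is a classical hypoxia-induced gene.

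The sequence on which the comparison turns is the stretch of Pdk4 between the loxP sites. Shown are exons 4, 5 and 6 of transcript Pdk4-201 of GENCODE M21 (GRCm38, minus strand), on the assumption that the exon numbers are those of that transcript. They lie at chr6:5491830-5492014, chr6:5491591-5491677 and chr6:5491070-5491147.
Pdk4 exon 4: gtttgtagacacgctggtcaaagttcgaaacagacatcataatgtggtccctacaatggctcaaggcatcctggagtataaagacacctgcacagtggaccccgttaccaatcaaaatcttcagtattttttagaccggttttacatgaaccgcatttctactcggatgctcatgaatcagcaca
Pdk4 exon 5: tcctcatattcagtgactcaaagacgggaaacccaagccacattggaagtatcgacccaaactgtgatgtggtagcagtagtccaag
Pdk4 exon 6: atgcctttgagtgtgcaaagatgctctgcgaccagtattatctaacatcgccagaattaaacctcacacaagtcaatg

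These exons are wholly coding and hold 185, 87 and 78 bases. Their 350 bases make up 28.2% of the coding sequence of 1239 bases and 10.0% of the transcript of 3484 bases, and division of 350 by 3 leaves 2 bases over. Exon 11 alone, which holds the end of the coding sequence and all that follows, makes up 64.4% of the transcript. The table gives 1 count per gene, so reads from a transcript without exons 4 to 6 and reads from an intact transcript are summed.

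The substrate of the kinases is shown at the codons of the 3 regulated serines of Pdha1 (transcript Pdha1-201, GENCODE M21, GRCm38, minus strand of chromosome X). Capitals mark the serine codons, which the script located at residues 293 and 300 (sites 1 and 2) and 232 (site 3), counted from the initiator methionine.
Pdha1 sites 1 and 2: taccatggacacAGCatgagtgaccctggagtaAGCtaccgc
Pdha1 site 3: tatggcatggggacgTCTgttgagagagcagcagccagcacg

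RNA from the 6 cultures was sequenced, and the deposited values are whole numbers of reads per gene. Between 16526044 and 22481670 reads were counted per library, and a count of 3, taken as the limit of detection, corresponded to 0.132 to 0.227 CPM (the reads of a gene relative to the TMM-scaled library total; this limit covers counting error only). The genotypes differed over much of the transcriptome, with correlations of log2 CPM of at least 0.9814 within a genotype and at most 0.7477 between them. Calls required at least a 2-fold change together with an adjusted p below 0.05 (edgeR's quasi-likelihood test, Benjamini-Hochberg over 14085 genes), and 3733 genes (26.5%) were called lower and 4616 (32.8%) higher in Pdk4SMKO. With library size alone as the scaling, these counts became 2390 and 6184, and the median log2 fold change of all tested genes moved from 0.12 to 0.72, so directions are read against that shift.

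The libraries also differed in markers of cell type. None of the 8 smooth muscle markers was at 0 throughout a genotype, but Des had only 5, 1 and 0 counts in Pdk4fl/fl. The 8 summed to 785 to 811 CPM in Pdk4fl/fl and 723 to 954 CPM in Pdk4SMKO. Most of the Pdk4fl/fl sum came from Acta2, Tagln and Smtn (means of 233, 253 and 280 CPM). Of the 8, Acta2, Myh11, Lmod1 and Des were called higher and Tagln, Cnn1 and Smtn lower. Myh11, whose promoter drives the Cre, had 8, 10 and 10 counts in Pdk4fl/fl and 62, 44 and 46 in Pdk4SMKO. Mesothelium markers summed to 74.2 to 99.99 CPM in Pdk4fl/fl and to 723 to 1325 CPM in Pdk4SMKO, with 7 of the 7 tested called higher and none of the 8 at 0 throughout a genotype. Fibroblast markers summed to 599 to 837 and 5141 to 7047 CPM, with 3 of 4 called higher. Macrophage markers summed to 21.5 to 38.3 and 38.0 to 119 CPM, with 1 of the 7 tested called lower (Cd68) and 6 higher, and 4 of the 8 (Adgre1, C1qa, C1qb and Tyrobp) were at 0 in every Pdk4fl/fl library. Endothelium markers summed to 12.5 to 21.6 and 2.14 to 4.61 CPM, with 1 of 4 tested and called lower. In bulk RNA a change in the share of a cell type and a change in RNA per cell cannot be told apart, and the part of either in the values that follow was not tested.

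Pdk4, Pdhb and Pdhx were called lower in Pdk4SMKO cells, and Pdk1, Pdk2 and Pdp1 were called higher. The members called lower were 30% of the 10 and those called higher 30%, beside 26.5% and 32.8% of all tested genes, and their median log2 fold change was 0.25 against 0.12, so by its counts the system moved about as often as the rest of the transcriptome. An adjusted p under 0.05 at any fold was reached by 8 of the 10, beside 79.1% of all tested genes, with Pdpr the nearest to that limit. The genotypes did not overlap for 7 of the 10, beside 81.8%. What the members differed in was direction and size, which is described by role below. Each ± is an SD over the 3 libraries of a genotype, and positions are those of the table, whose identifiers belong to Ensembl's annotation of the C57BL/6NJ assembly.

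**Figure D1:**
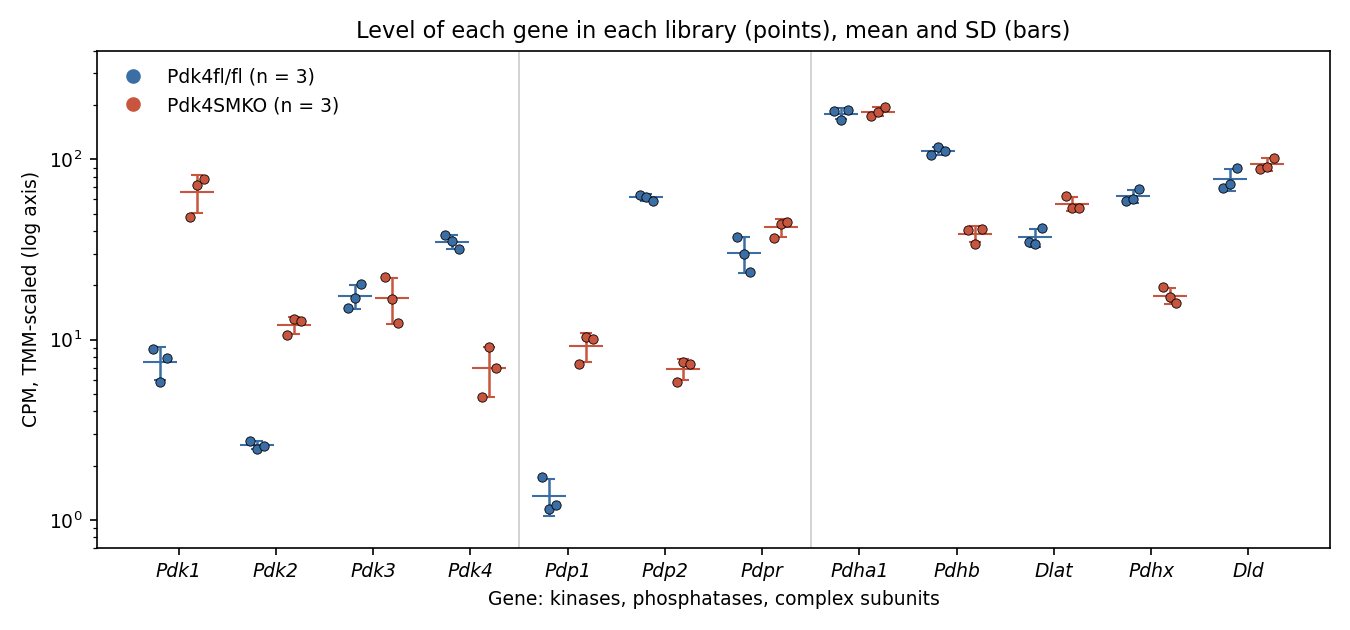
CPM after TMM scaling (log axis) of the 10 members and of Pdp2 and Dld in each of the 6 libraries, with points for libraries and bars for the mean and SD of each genotype. Pdk1, Pdk2 and Pdp1 sat higher in all 3 Pdk4SMKO libraries, Pdk4, Pdp2, Pdhb and Pdhx sat lower in all 3, and Pdk3, Pdpr, Pdha1 and Dld overlapped.

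Among the kinases, the targeted gene is given first. Pdk4 (MGP_C57BL6NJ_G0030873, chr6:2392986-2408102) had 570, 639 and 421 counts in the Pdk4fl/fl libraries and 110, 182 and 141 in the Pdk4SMKO libraries. Every Pdk4SMKO library lay below every Pdk4fl/fl library, and none was near the limit of detection. The level was 35.0 ± 3.07 CPM (n = 3) in Pdk4fl/fl and 6.93 ± 2.11 CPM (n = 3) in Pdk4SMKO, or 19.8% of the floxed level, with a log2 fold change of -2.34 (SE 0.22, edgeR adjusted p = 4.49e-06). The floxed exons make up 10.0% of the transcript, and the remaining reads were not assigned to exons here.

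Pdk1 (MGP_C57BL6NJ_G0026246, chr2:74210602-74242854), the hypoxia-induced isoform, had 133, 106 and 105 counts in Pdk4fl/fl and 1094, 1439 and 1590 in Pdk4SMKO. The lowest Pdk4SMKO library was several times the highest Pdk4fl/fl library. In CPM it was 7.54 ± 1.56 and 65.9 ± 15.8, an 8.73-fold higher level (log2 fold change 3.13, SE 0.23, edgeR adjusted p = 7.49e-07). This was the largest fold among the 10 members, and 10.2% of all tested genes had a log2 fold change at least as high.

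Pdk2 (MGP_C57BL6NJ_G0019368, chr11:100274327-100289423), the isoform most widely expressed across tissues, had 41, 45 and 34 counts in Pdk4fl/fl and 241, 260 and 258 in Pdk4SMKO. The 3 libraries of each genotype lay close together. The levels were 2.59 ± 0.13 and 12.1 ± 1.29 CPM, a 4.65-fold higher level in Pdk4SMKO (log2 fold change 2.22, SE 0.21, edgeR adjusted p = 4.05e-06). The antisense gene Gm11513, which overlaps it, had 0 counts in all 6 libraries.

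Pdk3 (MGP_C57BL6NJ_G0036404, chrX:92884217-92959713) had 226, 309 and 269 counts in Pdk4fl/fl and 505, 336 and 253 in Pdk4SMKO. The genotypes overlapped, and the spread within Pdk4SMKO covered that of Pdk4fl/fl. At 17.5 ± 2.68 and 17.1 ± 4.89 CPM it gave a log2 fold change of -0.03 (SE 0.22, edgeR adjusted p = 0.914), whose sign turned with the scaling (0.59 with library size alone, edgeR adjusted p = 0.032).

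Counts per kb of gene length put the 4 kinases on 1 scale. In Pdk4fl/fl, Pdk4 had the highest level per length, 9.95 ± 0.87 CPM per kb, followed by Pdk3 at 6.82 ± 1.05, with no overlap between the libraries of these 2 genes. With the lengths of the longest coding transcripts in GENCODE M21 they overlapped, at 10.0 ± 0.88 and 8.26 ± 1.27 CPM per kb, and Pdk3 exceeded Pdk4 in the third Pdk4fl/fl library. Pdk1, at 0.97 ± 0.20, and Pdk2, at 0.82 ± 0.042, came last and overlapped each other. In Pdk4SMKO the order was Pdk1 (8.47 ± 2.03 CPM per kb) and Pdk3 (6.68 ± 1.91), which overlapped, then Pdk2 (3.81 ± 0.41) and Pdk4 (1.97 ± 0.60), which did not overlap each other or the first pair.

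As shares of the summed kinase level per kb, Pdk4 held 57.8%, 55.0% and 48.1% in the Pdk4fl/fl libraries and 7.03%, 11.5% and 9.44% in the Pdk4SMKO libraries. Pdk1 held 6.10%, 4.13% and 5.42% in Pdk4fl/fl and 31.6%, 41.1% and 48.1% in Pdk4SMKO. Pdk2 rose from 4.41% ± 0.18 to 18.2% ± 1.05, while Pdk3 was at 36.7% ± 5.36 and 32.2% ± 10.8 and overlapped. The level of Pdk1 per level of Pdk4 was thus 0.098 ± 0.020 in Pdk4fl/fl and 4.39 ± 0.77 in Pdk4SMKO.

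With TMM scaling, the summed level of the 4 kinases differed less than its makeup, by an amount that depended on the gene lengths. It was 18.7, 18.1 and 18.8 CPM per kb in Pdk4fl/fl and 19.6, 22.4 and 20.8 in Pdk4SMKO. All 3 Pdk4SMKO sums lay above the Pdk4fl/fl sums, by a mean of 20.9 against 18.6. With GENCODE lengths the sums were 20.9 ± 0.57 and 28.2 ± 2.14 CPM per kb (1.35-fold), and without division by length 62.6 ± 2.16 and 102 ± 14.2 CPM (1.63-fold). The genotypes did not overlap under any of these lengths. A sum between libraries also depends on the scaling. The TMM factors were 0.78 to 0.84 in Pdk4fl/fl and 1.21 to 1.26 in Pdk4SMKO. The sum was not computed under the other scalings. An exact two-sided permutation test of 3 libraries against 3 cannot give a p under 0.1, and this sum, the shares of Pdk1, Pdk2 and Pdk4, and each ratio below whose genotypes did not overlap stood at that limit.

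**Figure D2:**
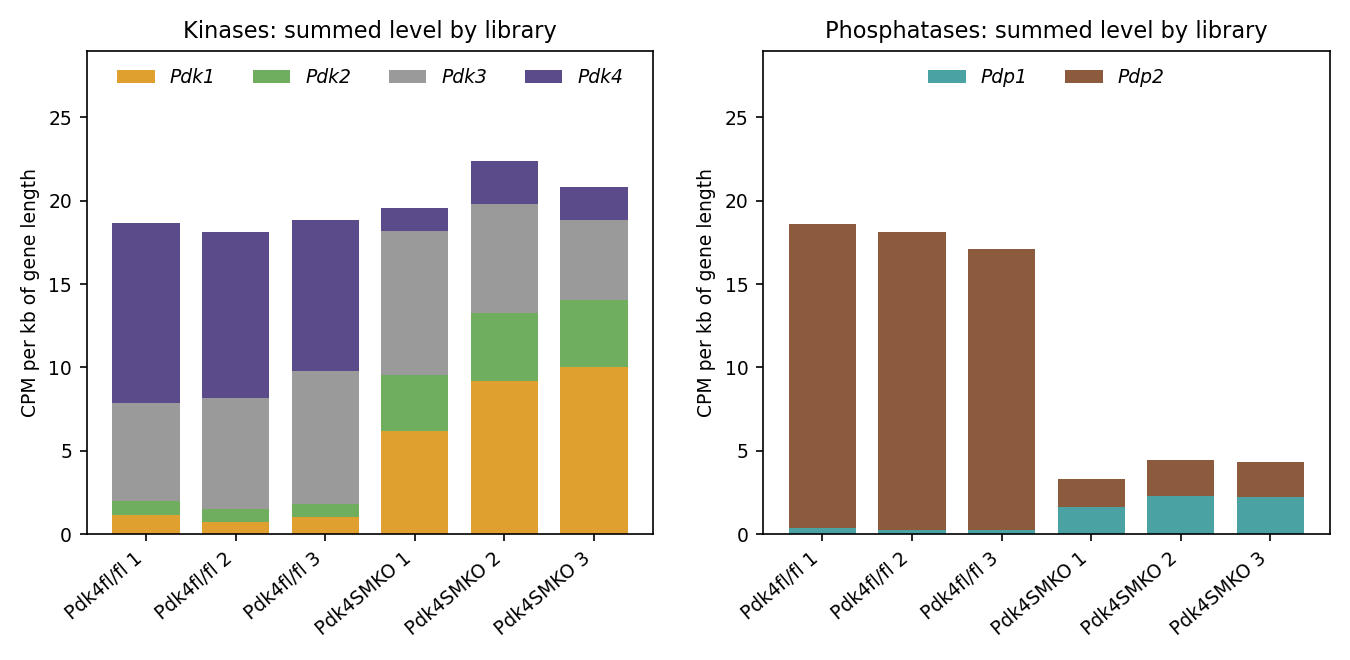
Stacked levels in CPM per kb of gene length (linear axes from 0) of the 4 kinases and of the phosphatases Pdp1 and Pdp2 in each library. The kinase bars reach 18.1 to 18.8 in Pdk4fl/fl and 19.6 to 22.4 in Pdk4SMKO with Pdk4 giving way to Pdk1 and Pdk2, while the phosphatase bars drop from 17.1 to 18.6 to between 3.30 and 4.43.

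Of the phosphatase genes, Pdp1 and Pdp2 moved in opposite directions. Pdp1 (MGP_C57BL6NJ_G0028471, chr4:9059514-9067782), the calcium-stimulated catalytic subunit, had 26, 21 and 16 counts in Pdk4fl/fl and 166, 207 and 205 in Pdk4SMKO. It was the least abundant of the members in Pdk4fl/fl, though each library was above the limit of detection. Its levels of 1.37 ± 0.32 and 9.22 ± 1.67 CPM made it 6.75-fold higher in Pdk4SMKO (log2 fold change 2.75, SE 0.28, edgeR adjusted p = 7.55e-06).

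Pdp2 (MGP_C57BL6NJ_G0034508, chr8:110659600-110664960), the insulin-responsive catalytic subunit, had 952, 1131 and 775 counts in Pdk4fl/fl and 133, 150 and 150 in Pdk4SMKO. The libraries of each genotype were close to each other and far from those of the other. It fell from 61.4 ± 2.48 to 6.89 ± 0.91 CPM, 11.2% of the floxed level (log2 fold change -3.16, SE 0.15, edgeR adjusted p = 5.04e-08), and only 5.36% of all tested genes had a log2 fold change this low.

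Pdp1 made up 1.68% ± 0.34 of the summed Pdp1 and Pdp2 level per kb in Pdk4fl/fl and 50.6% ± 1.38 in Pdk4SMKO. The sum of both fell from 18.0 ± 0.76 to 4.03 ± 0.63 CPM per kb. With GENCODE lengths, Pdp1 made up 2.91% ± 0.58 and 64.3% ± 1.28, so which of the 2 was more abundant in Pdk4SMKO depended on the lengths, while Pdp2 was the more abundant in Pdk4fl/fl with either.

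Pdpr (MGP_C57BL6NJ_G0034629, chr8:117824144-117874584), which lowers the activity of PDP1 by binding it, had 558, 541 and 315 counts in Pdk4fl/fl and 829, 884 and 921 in Pdk4SMKO. After scaling, the first Pdk4fl/fl library, at 37.2 CPM, passed the lowest Pdk4SMKO library, at 36.4 CPM. The levels were 30.2 ± 6.70 and 41.9 ± 4.77 CPM (log2 fold change 0.47, SE 0.18, edgeR adjusted p = 0.0311), short of the 2-fold limit except with library size alone (1.07). The adjusted p passed 0.05 when any of 4 of the 6 libraries was left out (0.0852 and 0.078 without the second and the third Pdk4fl/fl library, 0.0798 and 0.0904 without the second and the third Pdk4SMKO library), with the log2 fold change as low as 0.31. The minus-strand gene 9430091E24Rik overlaps its span, with 31, 11 and 25 counts in Pdk4fl/fl and 3, 3 and 7 in Pdk4SMKO, and whether the counting used strand is not given in the sources used here. The level of Pdpr per level of Pdp1 was 13.0 ± 1.82 in Pdk4fl/fl and 2.67 ± 0.22 in Pdk4SMKO.

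The ratio of kinase to phosphatase mRNA turned on which phosphatase was counted. Against Pdp1 alone, the summed kinase level per kb was 48.6, 70.9 and 70.2 times that of Pdp1 in Pdk4fl/fl and 12.1, 9.80 and 9.34 times in Pdk4SMKO, so that the ratio was lower in Pdk4SMKO. Against Pdp1 and Pdp2 together, a comparison added after the values were seen, it was 1.00, 1.00 and 1.10 in Pdk4fl/fl and 5.93, 5.05 and 4.79 in Pdk4SMKO, so that the ratio was 5.08-fold higher in Pdk4SMKO. Neither pair of genotypes overlapped. With GENCODE lengths the ratio to Pdp1 and Pdp2 together was 1.88 ± 0.12 in Pdk4fl/fl and 8.36 ± 0.87 in Pdk4SMKO, or 4.44-fold higher. The value within each genotype thus depended on the lengths. These are ratios of mRNA levels, and neither protein nor phosphorylation of E1 was measured in these libraries. By Western blot of Ang II-treated MASMCs, the paper reported no compensatory rise of PDK1, PDK2 or PDK3 protein in Pdk4SMKO. It also reported higher PDH activity in Pdk4SMKO cells.

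**Figure D3:**
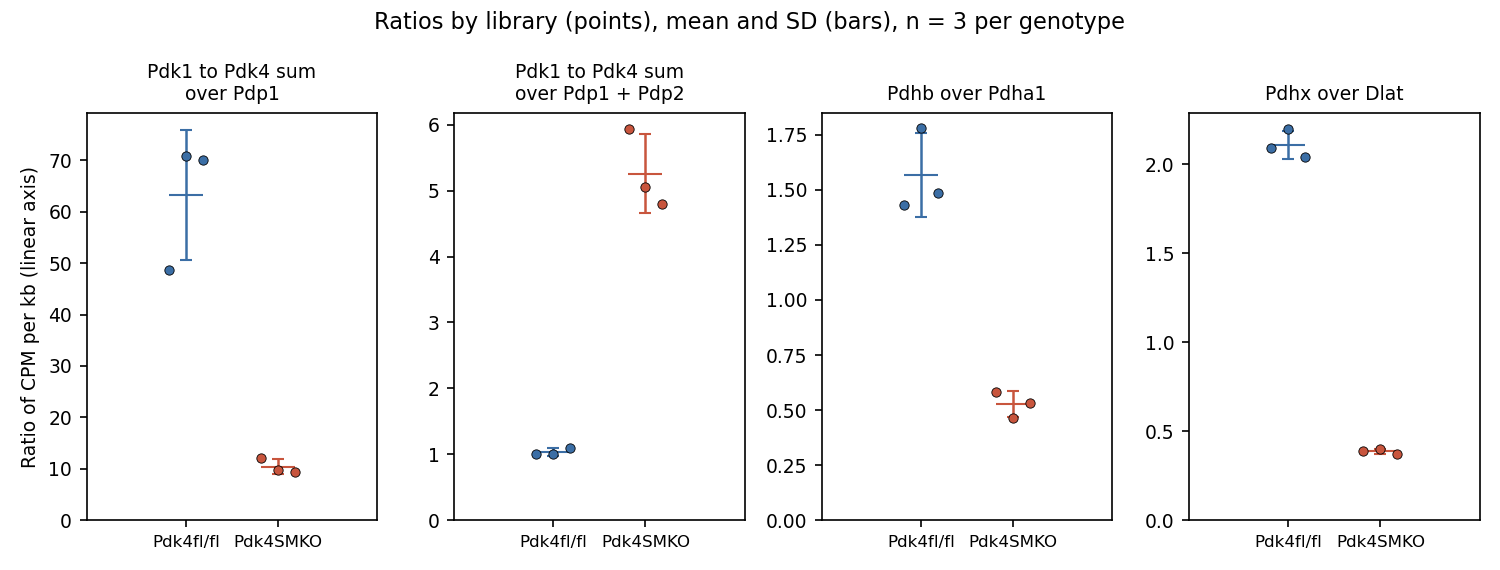
Ratios of levels per kb in each library (linear axes from 0), with points for libraries and bars for the mean and SD of each genotype. The ratio of summed kinases to Pdp1 was higher in Pdk4fl/fl, the ratio to Pdp1 and Pdp2 together was higher in Pdk4SMKO, and the ratios of Pdhb to Pdha1 and of Pdhx to Dlat were higher in Pdk4fl/fl.

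Among the subunits of the complex, Pdhb and Pdhx fell while their partners Pdha1 and Dlat were not called. Pdha1 (MGP_C57BL6NJ_G0036714, chrX:162740585-162757354), the phosphorylated α subunit of E1, had 2786, 3009 and 2476 counts in Pdk4fl/fl and 3956, 3698 and 3962 in Pdk4SMKO. It had the highest CPM of the 10 members in both genotypes, and the genotypes overlapped after scaling. The levels were 179 ± 12.3 and 184 ± 10.3 CPM (log2 fold change 0.04, SE 0.11, edgeR adjusted p = 0.774). With library size alone the log2 fold change was 0.64 (edgeR adjusted p = 0.000476), below the median of 0.72 of all genes under that scaling, and without the second Pdk4fl/fl library the sign turned (-0.01). Map3k15, which overlaps its span, had 4, 7 and 3 counts in Pdk4fl/fl and 50, 34 and 22 in Pdk4SMKO.

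Pdhb (MGP_C57BL6NJ_G0021373, chr14:514726-521734), the β subunit of E1, had 1586, 2134 and 1463 counts in Pdk4fl/fl and 918, 684 and 840 in Pdk4SMKO. Every Pdk4SMKO library was below every Pdk4fl/fl library. It fell from 111 ± 5.74 to 38.5 ± 3.90 CPM, 34.6% of the floxed level (log2 fold change -1.53, SE 0.13, edgeR adjusted p = 1.67e-06), and with library size alone it missed the 2-fold limit (-0.92). Per kb, the level of Pdhb was 1.43, 1.78 and 1.49 times that of Pdha1 in Pdk4fl/fl and 0.58, 0.47 and 0.53 times in Pdk4SMKO. With these lengths the more abundant E1 transcript was Pdhb in each Pdk4fl/fl library and Pdha1 in each Pdk4SMKO library. In Pdk4fl/fl the ratio was 1.07, 1.33 and 1.11 with GENCODE lengths. Without division by length it was 0.57, 0.71 and 0.59 there, so the order in Pdk4fl/fl depended on the lengths.

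Dlat (MGP_C57BL6NJ_G0035278, chr9:50911577-50940169), the acetyltransferase core, had 524, 620 and 551 counts in Pdk4fl/fl and 1417, 1081 and 1098 in Pdk4SMKO. The genotypes did not overlap, at 36.9 ± 4.19 and 56.6 ± 4.84 CPM. The change reached an adjusted p of 0.00157 (edgeR) without reaching 2-fold (log2 fold change 0.62, SE 0.13), and it passed 2-fold with library size alone (1.23).

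Pdhx (MGP_C57BL6NJ_G0026621, chr2:108522506-108575848), which anchors E3 to the core, had 878, 1091 and 902 counts in Pdk4fl/fl and 444, 346 and 325 in Pdk4SMKO. Each Pdk4SMKO library was below each Pdk4fl/fl library. It fell from 62.2 ± 5.27 to 17.6 ± 1.80 CPM, 28.2% of the floxed level (log2 fold change -1.82, SE 0.14, edgeR adjusted p = 9.27e-07). Per kb it was 2.09, 2.20 and 2.04 times the level of Dlat in Pdk4fl/fl and 0.39, 0.40 and 0.37 times in Pdk4SMKO, a 5.46-fold lower ratio.

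Dld (chr12:30172260-30194259), the E3 subunit shared with other dehydrogenases, had 1043, 1327 and 1190 counts in Pdk4fl/fl and 2003, 1823 and 2083 in Pdk4SMKO, or 77.5 ± 11.0 and 93.6 ± 7.55 CPM. The genotypes overlapped and the change did not pass the test (log2 fold change 0.27, SE 0.14, edgeR adjusted p = 0.0866). Pdha2, the α subunit of germ cells, had 0 counts in all 6 libraries. The summed kinase level per level of Pdha1, the substrate, was 0.39 ± 0.020 in Pdk4fl/fl and 0.43 ± 0.027 in Pdk4SMKO, and the genotypes overlapped. With GENCODE lengths it was 0.33 ± 0.015 and 0.44 ± 0.026 and the genotypes did not overlap.

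Pdk3 and Pdha1 lie on chromosome X, and Xist, the noncoding RNA of X inactivation, had 3, 4 and 5 counts in Pdk4fl/fl and 610, 347 and 321 in Pdk4SMKO. The methods describe all mice as male and the Myh11-Cre transgene as Y-linked, so that only males carry it. The Xist counts of the Pdk4SMKO libraries are at odds with that description. Whether the cultures of the 2 genotypes were otherwise matched is not known. Of the 466 tested genes of chromosome X, 28.8% were called lower and 30.9% higher, with a median log2 fold change of -0.03, beside 26.4%, 32.8% and 0.13 for autosomal genes. The part of the Xist difference, or of its source, in the values of Pdk3, Pdha1 and the other members was not tested.

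**Figure D4:**
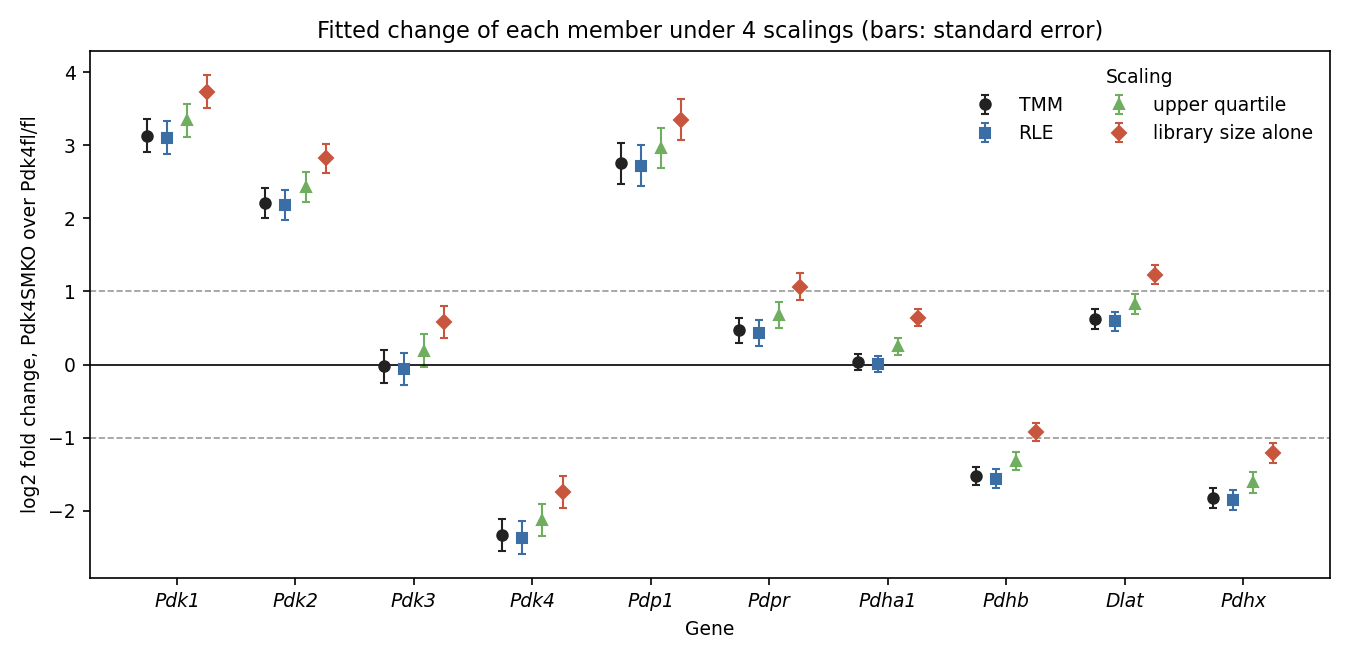
Fitted log2 fold change (Pdk4SMKO over Pdk4fl/fl) of each member under TMM, RLE, upper-quartile and library-size scaling, with bars for the standard error and dashed lines at a 2-fold change. Library size alone moved every member upward, which took Pdpr and Dlat over the upper line and Pdhb inside the lower one, and Pdk3 changed sign.

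The promoters of Pdk1 and Pdk2, the kinases that rose, are shown as RefSeq gives them for the first listed start of each gene (GRCm38.p6, chr2:71872974-71873273 on the plus strand and chr11:95041322-95041621 on the minus strand). Capitals mark ACGTG on either strand, a form of the core of the hypoxia response element that is also found in E-boxes. CACGTG thus holds the motif on both strands. GCGTG, another form of the hypoxia core, which the Pdk1 promoter shown holds, is left in lower case and was not searched.
Pdk1: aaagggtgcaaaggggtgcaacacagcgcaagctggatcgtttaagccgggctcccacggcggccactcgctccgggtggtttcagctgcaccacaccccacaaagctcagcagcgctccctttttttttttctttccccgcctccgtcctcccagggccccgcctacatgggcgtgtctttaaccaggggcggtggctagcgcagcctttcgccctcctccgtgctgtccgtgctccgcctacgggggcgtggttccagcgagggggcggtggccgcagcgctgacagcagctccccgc
Pdk2: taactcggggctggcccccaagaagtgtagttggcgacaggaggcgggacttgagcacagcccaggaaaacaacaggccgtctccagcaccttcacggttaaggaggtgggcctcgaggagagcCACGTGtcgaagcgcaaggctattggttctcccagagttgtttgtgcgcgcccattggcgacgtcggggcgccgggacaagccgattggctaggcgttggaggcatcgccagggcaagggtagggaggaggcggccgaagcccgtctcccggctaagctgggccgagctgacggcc

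A promoter was listed for 9 of the 10 members. ACGTG was found in those of 4 (Pdk2, Pdk3, Pdpr and Pdhb), beside 19.6% of all 32851 listed promoters of 300 bases, and CCAAT in those of 5 (Pdk2, Pdk3, Pdk4, Pdhb and Pdhx), beside 37.4%. Both motifs were thus found in genes that rose, fell and were not called. GCGTG was not counted, so promoters without ACGTG may still hold a hypoxia core. The FOXO motif GTAAACA (3.65% of all promoters) and the ERR motif TCAAGGTCA (0.423%), searched on both strands, were found in none of the 9.

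The known regulators of Pdk transcription moved in both directions. Of 15 tested genes of 17 listed, 2 were called lower and 5 higher (13.3% and 33.3%, median log2 fold change 0.57). Among all tested genes 26.5% were called lower and 32.8% higher (median 0.12). Ppargc1a, the coactivator that raises Pdk4 in muscle and liver, had 144, 143 and 113 counts in Pdk4fl/fl and 35, 41 and 40 in Pdk4SMKO and fell (log2 fold change -2.23, edgeR adjusted p = 1.2e-05), as did the nuclear receptor Pparg (-1.26). Hif1a, the hypoxia factor that acts on Pdk1, rose from 279 ± 37.9 to 712 ± 156 CPM (1.35, adjusted p = 5.82e-05), as did its relative Epas1 (1.93), the receptors Rxra (1.14) and Esrra (1.12), and Foxo4 (1.01). Foxo1 (0.61), Foxo3 (-0.39), Ppard (-0.43) and Ppara (1.73, at 0.32 ± 0.45 and 0.98 ± 0.28 CPM) were not called. The directions of Hif1a and Ppargc1a were opposite to the paper's RT-qPCR of Ang II-treated MASMCs, which used β-actin as reference. There, Hif1α mRNA was lower and Pgc1α mRNA higher in Pdk4SMKO. Tfam and Ogdh, which the paper reported as higher, were also higher here.

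Genes that supply pyruvate or take it elsewhere were also split. Of 13 tested of 14 listed, 4 were called lower and 5 higher (30.8% and 38.5%, median -0.19), beside 26.5% and 32.8% of all tested genes. Ldha and Ldhb, the lactate dehydrogenase subunits, rose from 209 ± 16.1 to 448 ± 14.6 CPM (log2 fold change 1.10) and from 9.09 ± 2.89 to 68.6 ± 12.3 CPM (2.93). Slc16a3, the lactate exporter MCT4, had 2, 4 and 2 counts in Pdk4fl/fl and 1098, 737 and 598 in Pdk4SMKO (edgeR adjusted p = 3e-08). Pcx, which carboxylates pyruvate to oxaloacetate, rose (1.46), and Pkm, the pyruvate kinase, fell from 4141 ± 177 to 1401 ± 156 CPM (-1.56), as did Pck2 (-1.26). The carrier that brings pyruvate into the matrix was not called at either subunit. Mpc1 was lower without reaching 2-fold (-0.86, 16.1 ± 0.45 and 8.87 ± 1.11 CPM, edgeR adjusted p = 0.000801), and its genotypes did not overlap. Mpc2 was at -0.19 (edgeR adjusted p = 0.483), and its genotypes overlapped.

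The sister complexes, which share the design and the E3 subunit of PDH, gave 2 lower and 3 higher calls among 10 tested (20% and 30%, median 0.14). These shares stand beside 26.5% and 32.8% of all tested genes. Ogdh, the first component of the 2-oxoglutarate complex, rose from 60.2 ± 5.64 to 151 ± 7.24 CPM (log2 fold change 1.32), and Ogdhl (2.00) and Dbt (1.26), the core of the branched-chain complex, rose as well. Bckdha, the counterpart of Pdha1 in the branched-chain complex, fell (-1.39), Dhtkd1 fell (-1.57, below the abundance set for naming and added after its value was seen), and Bckdk, the kinase related to the PDH kinases, reached 0.94 without being called.

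Genes for the cofactors of these complexes, lipoate and thiamine pyrophosphate, gave 2 lower and 5 higher calls among 9 tested of 10 listed (22.2% and 55.6%, median 1.40). For all tested genes the shares were 26.5% and 32.8% (median 0.12). Oxsm and Mcat, of the mitochondrial fatty acid synthesis that feeds lipoate, rose from 0.75 ± 0.12 to 12.9 ± 1.44 CPM (log2 fold change 4.12) and from 2.96 ± 0.10 to 21.4 ± 1.79 CPM (2.85). Mecr, of the same pathway, fell (-1.25).

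**Figure D5:**
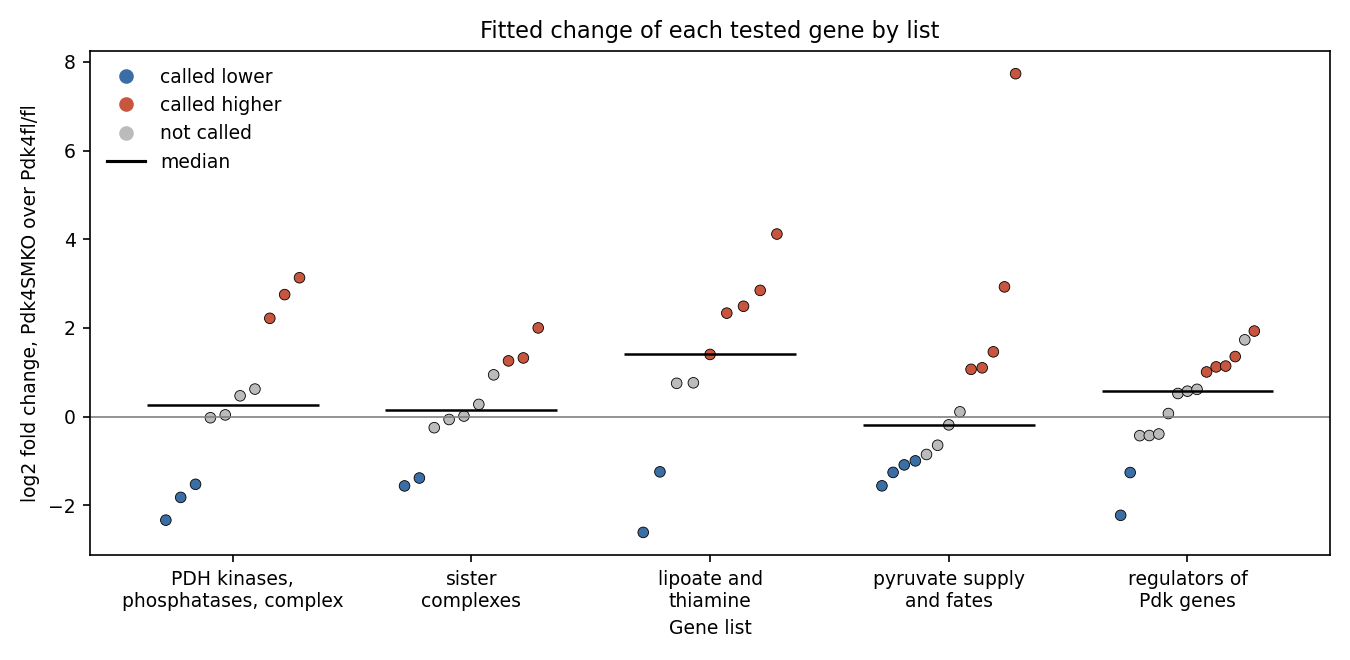
Fitted log2 fold change (Pdk4SMKO over Pdk4fl/fl) of each tested member and of each tested gene of 4 related lists, coloured by call, with black lines for the median of each list. Every list held genes called lower and genes called higher, beside 26.5% and 32.8% of all tested genes. The medians were 0.25, 0.14, 1.40, -0.19 and 0.57 from left to right.

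The genes whose levels followed Pdk4 most closely over the 6 libraries, by the root mean square difference of log2 CPM centred on each gene's mean, were Pim3 (0.14), a serine/threonine kinase, Nrip3 (0.15) and Gnao1 (0.16), a G protein subunit. Pim3 had 4759, 6270 and 3673 counts in Pdk4fl/fl and 1094, 2024 and 1508 in Pdk4SMKO, and in both genes the first Pdk4SMKO library was the lowest and the second the highest of its genotype in CPM. Nrip3 had 42, 50 and 24 counts in Pdk4fl/fl and only 6, 10 and 7 in Pdk4SMKO, near the limit of detection, so its place is less certain. The likeness rests on the difference between genotypes, which all 4 genes share, and on 6 libraries.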

How the data were processed

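RNA sequencing of Ang II-treated MASMCs (3 libraries per genotype) was analysed from the table of counts that the authors deposited, given as raw whole read numbers for each gene. The aligner, the counting program and the use of strand are not given in the sources used here. The labels' processing notes name GRCm39, whereas the gene identifiers are those of the C57BL/6NJ assembly. The methods name the NEBNext Ultra kit and the labels a SMARTER kit. No per-sample column was left out, and the labels gave the groups.

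The counts were filtered with filterByExpr, scaled by TMM and tested for genotype with the quasi-likelihood test of edgeR 4.0.16 (R 4.3.3, limma 3.58.1), with Benjamini-Hochberg adjustment over 14085 genes. Calls needed a 2-fold change, up or down, with an adjusted p below 0.05, after the study's limits. DESeq2 1.42.0 was an alternative. Levels per kb divide CPM by the gene length of the table. For single values and ratios the permutation test was exact and two-sided. The fit was tested on simulated counts in which most genes were unchanged, so that test does not cover a difference as wide as the one here. Sequences came from GENCODE M21 and RefSeq (GRCm38.p6), read with Python 3.11.15.

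The members, lists and tests were chosen with earlier results of these data known. Named were the 10 members, Pdp2, Dld, Pdha2, fixed regulators and pyruvate genes, the 3 genes nearest to Pdk4, and, per list, up to 2 lowest and 2 highest called genes with a mean of 10 CPM or more in either genotype. Marker genes, Dbt, Rxra, Foxo4, Dhtkd1, Gm11513, 9430091E24Rik and Map3k15 were named outside this rule. Esrra was matched by its row's description. Alternatives were scaling by RLE, upper quartile or library size, other filters and thresholds, a replicate block, leaving out each library, other gene lengths and other ratios. A result that the naming rule would give for the cofactor list is not reported here.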

Additional observations from a re-analysis of the deposited data

How the results depend on the processing

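Pdk1, Pdk2, Pdk4, Pdp1 and Pdhx kept their direction and call under every alternative run, and the log2 fold change of Pdk4 lay between -2.57 and -2.12 when each library was left out. Members called higher numbered 5 in place of 3 with library size alone or with no limit on the fold, and those called lower 2 in place of 3 with library size alone, since Pdpr (1.07), Dlat (1.23) and Pdhb (-0.92) crossed the 2-fold limit. Pdk3 turned positive with upper-quartile scaling (0.19), library size alone (0.59, adjusted p = 0.032 by edgeR), no filter (0.021) and at least 10 counts in every library (0.071), and without Pdk4fl/fl replicate 3 (0.08) or Pdk4SMKO replicate 3 (0.17), its range over left-out libraries being -0.25 to 0.17. Pdha1 was at 0.64 with library size alone (adjusted p = 0.000476) and turned negative without Pdk4fl/fl replicate 2 (-0.0083, with a range over left-out libraries of -0.0083 to 0.087). On the log2 scale, the ratio of summed kinases to Pdp1 differed by -2.59 between genotypes, by -2.07 without division by length, by -1.62 without Pdk4 and by 2.34 with Pdp2 added to Pdp1. The ratio of summed kinases to Pdha1 differed by 0.13, by 0.66 without division by length, by 0.39 with GENCODE lengths and by 1.11 without Pdk4. The summed kinase level, under TMM scaling alone, differed by 0.17 (0.12 to 0.22 over left-out libraries), by 0.70 without division by length and by 0.43 with GENCODE lengths. The share of Pdp1 in Pdp1 and Pdp2 differed by 49.0, 54.9 and 61.4 percentage points for the same settings, in that order. Pdpr had adjusted p values of 0.0099 to 0.0904 over left-out libraries, 4 of the 6 above 0.05. The GENCODE lengths and the settings of the last 2 quantities were chosen after seeing the data. Over all genes, library size alone gave 2390 lower calls in place of 3733. Replicate numbers did not pair the libraries (correlations of same-numbered deviations 0.04, 0.06 and 0.18). With the replicate block, Pdk4 was at -2.36, 3704 genes were lower and 4577 higher, and no member changed its call.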

Other observations

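Genes that PPAR and FOXO factors control together with Pdk4 in other tissues were split, as tested genes were at large. Of 14 tested of 16 listed, 3 were called lower and 6 higher (21.4% and 42.9%, median log2 fold change 0.56). Over all tested genes the shares were 26.5% and 32.8%, with a median of 0.12. Fabp3, a fatty acid binding protein, fell from 84.4 ± 15.2 to 2.41 ± 0.82 CPM (-5.11), and the lipid droplet protein Plin2 fell from 209.5 ± 16.9 to 45.1 ± 8.63 CPM (-2.21). Angptl4, a secreted lipase inhibitor and classical PPAR target, rose from 1.48 ± 0.85 to 37.5 ± 2.60 CPM (4.60), and Acadm, of fatty acid oxidation, rose from 10.5 ± 1.70 to 46.9 ± 5.33 CPM (2.16).

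Genes often read as measures of mitochondrial mass gave 2 lower calls and 1 higher call among 11 tested (18.2% and 9.09%, median -0.39). For all tested genes the shares were 26.5% and 32.8% (median 0.12). Hspa9, the matrix chaperone mortalin, fell from 2585 ± 17.9 to 358 ± 23.5 CPM (-2.85), and Tomm20, an import receptor of the outer membrane, fell from 657 ± 147 to 167 ± 10.8 CPM (-1.98). Tfam, the mitochondrial DNA packaging factor, rose from 14.4 ± 4.87 to 34.9 ± 3.01 CPM (1.28). The scale of each fold change is log2, Pdk4SMKO over Pdk4fl/fl, with n = 3 per genotype. Actb, a common reference gene, rose from 247 ± 24.0 to 2363 ± 116 CPM (3.26).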
